A study of Homo sapiens with 6 samples.

Results

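Histone genes were followed in the human colorectal adenocarcinoma line HT29, an established cell line, after 24 h of exposure to YM155, known as a small-molecule inhibitor of survivin (BIRC5) transcription, or to the solvent DMSO as control. All genes whose symbol begins with HIST1H, HIST2H, HIST3H or HIST4H were taken as cluster genes, and all whose symbol begins with H1F, H2AF or H3F3 as replacement genes. This gave 91 of 26255 listed genes, 73 in the clusters and 18 outside them, and 1 of the 18 (H1FX-AS1) is a non-coding antisense RNA. Each group had 3 libraries of HT29 cells, and the labels name no genetic change in either group. The titles of the treated samples spell the agent YM115 and their treatment field YM155. The labels give no concentration and leave it unsaid whether separate cultures were used, so p-values rest on the spread among these 6 samples, which may be technical.

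Each library was made with an mRNA kit that takes RNA by its poly(A) tail, and each gene has 1 FPKM per library (a read level per length of transcript and per library size). What 1 read was worth in FPKM, estimated from the steps of low values, was 1.52 to 1.78 in the YM155 libraries and 0.997 to 1.11 in the DMSO libraries, relative to DMSO replicate 1, so the YM155 libraries were the shallower. Summed over all genes, FPKM came to 684616 ± 9919 per YM155 library and 547222 ± 13938 per DMSO library (SD, n = 3 each). Of 11 markers of colon epithelium, 9 were expressed well enough to test, among them KRT8 at 3239 ± 172 FPKM in YM155 libraries and 1962 ± 56.7 FPKM in DMSO libraries (SD, n = 3 each), while CDX1 and GPA33 stayed at or below 0.534 FPKM. With YM155, 6 of the 9 rose, KRT20 6.71-fold among them, 1 did not pass, and 2 fell, CDX2 (0.839 FPKM with YM155, 3.20 FPKM with DMSO) and VIL1 (22.3 FPKM with YM155, 38.6 FPKM with DMSO). The 88.9% of these markers that changed lay near the 84.7% of all tested genes, of which 43.6% rose and 41.0% fell. Markers of fibroblasts reached at most 0.328 FPKM in any library and those of endothelium at most 0.184 FPKM. Leukocyte markers reached at most 0.0835 FPKM apart from CD68, a lysosomal protein gene, at 82.9 ± 4.51 FPKM with YM155 and 4.85 ± 0.921 FPKM with DMSO (SD, n = 3 each).

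Histones wrap nuclear DNA. The core histones H2A, H2B, H3 and H4 form the nucleosome, and linker histone H1 binds where the DNA enters and leaves it. Most cluster genes lie grouped together without introns and are switched on in S phase, when new DNA must be packaged. Their mRNAs usually end not in a poly(A) tail but just after a short stem-loop, which is bound by SLBP, and the cut behind it needs the U7 small nuclear ribonucleoprotein. Replacement genes mostly carry introns and poly(A) signals, are transcribed outside S phase too, and supply variants such as H1.0, H2A.X, H2A.Z, macroH2A and H3.3. Some cluster genes also make a longer, polyadenylated transcript in cells that leave the cell cycle, and it is mainly such transcripts that a poly(A) library can catch.

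The stem-loop was searched for in the transcripts of GENCODE release 29 as GGNNNNTTT with a paired stem of 6 bases within 16 bases in all. It was present in an annotated transcript of 57 of 19669 coding genes (0.29%), and 31 of those were among the histone genes, 30 in the clusters and H2AFX outside them. The 8 sequences below are those of all histone genes that were both expressed well enough to test and annotated with a stem-loop. They are printed since they show that the RNA measured here can come from genes of the stem-loop kind. Each has 26 bases, 5′ to 3′, with the stem and loop in capitals.

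H2AFX: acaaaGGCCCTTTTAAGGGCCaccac
HIST1H2AC: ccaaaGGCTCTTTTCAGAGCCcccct
HIST1H2AE: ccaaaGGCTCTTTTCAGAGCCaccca
HIST1H2BC: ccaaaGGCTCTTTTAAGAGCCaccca
HIST1H2BD: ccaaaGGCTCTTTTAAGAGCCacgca
HIST1H2BG: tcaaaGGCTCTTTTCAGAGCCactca
HIST2H2BE: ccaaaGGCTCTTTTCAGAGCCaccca
HIST3H2A: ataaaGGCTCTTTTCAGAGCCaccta

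The stem-loops were nearly alike, and what differed was how much annotated transcript lies beyond them. The longest transcript holding the stem-loop runs on for 1729 bases past it in HIST2H2BE, 1128 in HIST1H2AC, 1059 in HIST1H2BG and 1044 in H2AFX. It runs on for 390 bases in HIST3H2A, 116 in HIST1H2BC, 51 in HIST1H2AE and 39 in HIST1H2BD. HIST1H2BC and HIST1H2BD also have a longer annotated transcript, of 659 and 789 bases, in which the stem-loop was not found. In HIST1H1C and HIST1H2BK, annotated with 642 and 381 bases, these letters were not found, which says only that they are not in those transcripts.

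Few cluster genes gave a measurable polyadenylated signal. The test took genes at 1 FPKM or more in at least 3 of 6 libraries, among them 11 of the 73 cluster genes and 10 of the 18 replacement genes. With YM155, 2 cluster genes rose and 5 fell, and 4 did not pass the test. Of the replacement genes 2 rose, 4 fell and 4 did not pass. Of all 12035 genes tested, 43.6% rose, 41.0% fell and 84.7% changed in either direction (limma, Benjamini-Hochberg adjusted over all of them, threshold 0.05). With a common sum 31.5% rose and 53.8% fell, and with upper-quartile scaling 34.5% rose and 51.3% fell. The 13 of 21 tested histone genes that changed, 61.9%, thus lay below that background, and a change by itself sets no histone gene apart. The median log2 fold change, YM155 over DMSO, was -0.27 in the tested cluster genes and -0.16 in the tested replacement genes, against 0.0245 over all tested genes. Values of the groups did not overlap in 14 of the 21, or 66.7%, against 85.9% of all tested genes. In bulk RNA, fewer cells in S phase and less histone RNA per cell cannot be told apart.

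All 3 tested linker histone genes rose, in and outside the clusters, against 43.6% of all tested genes. H1FX, which encodes the replacement linker histone H1.X, was at 236, 223 and 209 FPKM in the YM155 libraries, against 53.8, 52.5 and 59.05 FPKM in the DMSO libraries. The lowest YM155 library was thus far above the highest DMSO library. The 4.04-fold difference of the means (222.6 ± 13.6 with YM155, 55.1 ± 3.47 with DMSO; SD, n = 3 each) was the largest rise of any tested histone gene, at a log2 fold change of 1.99 (SE 0.0605, limma adjusted p = 6.35e-09).

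H1F0 encodes H1.0, the linker histone known for accumulating in non-dividing and differentiated cells. Its level was 256, 238 and 232 FPKM with YM155 and 119, 117 and 129 FPKM with DMSO, again without overlap. This was 1.99-fold higher, a log2 fold change of 0.99 (SE 0.0549, adjusted p = 2.42e-07). Together H1F0 and H1FX made up 27.4% ± 1.202 of the summed FPKM of all histone genes in the YM155 libraries and 10.03% ± 0.395 in the DMSO libraries (SD, n = 3 each). Both genes stood above H3F3B and H2AFY in every YM155 library and below both of these in every DMSO library, an order within libraries that no scaling can alter.

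HIST1H1C encodes H1.2 and was the only one of the 6 cluster H1 genes with enough signal to test. It was at 14.8, 13.3 and 15.8 FPKM with YM155 and 4.36, 6.41 and 6.24 FPKM with DMSO. No value of one group reached the other, and the 2.58-fold rise had a log2 fold change of 1.24 (SE 0.12, adjusted p = 1.17e-05). The level remained far below those of H1F0 and H1FX. HIST1H1B, HIST1H1D, HIST1H1E and HIST1H1T never exceeded 0.446 FPKM and HIST1H1A was listed at 0 throughout, as was H1FOO, the oocyte linker histone gene. H1FNT, of the male germ line, was above 0 in 1 library only, at 0.0595 FPKM with YM155. H1FX-AS1, transcribed from the strand opposite H1FX, was at 0.0985, 0.112 and 0.0644 FPKM with YM155 and 0.497, 0.202 and 0.390 FPKM with DMSO. These values were too low to test. Since the use of strand in counting is not given in the sources used here, H1FX and its antisense RNA are uncertain to the extent that they overlap.

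**Figure D1:**
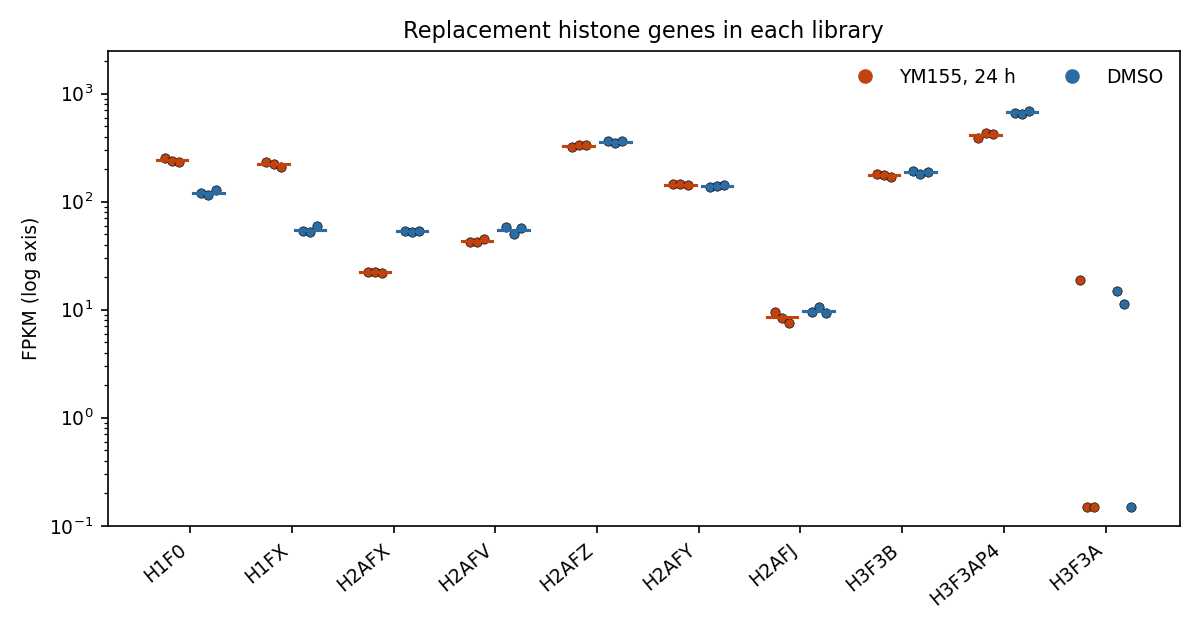
FPKM (log axis) of the 10 tested replacement histone genes in each library, with YM155 libraries left of DMSO libraries for each gene and a line at each group's mean (none for H3F3A). H1F0 and H1FX lie higher with YM155 and H2AFX, H2AFV, H2AFZ and H3F3AP4 lower, and the values of H3F3A below 0.15 FPKM are drawn at 0.15.

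The promoters of the linker histone genes HIST1H1C and H1FX are shown here with those of the core histone genes HIST1H2BK and H2AFX, which had the largest falls of a cluster and a replacement gene on the log2(FPKM + 1) scale, since they hold different motifs. Each is 300 bases, 250 before and 50 from the start of the gene, from RefSeq (GRCh38.p14). The capitals mark matches on either strand to 4 motifs of histone promoters, namely the H1 box AAACACA, the CCAAT box, the octamer ATTTGCAT and the TATA box TATAAA, and no base belonged to more than 1 kind of motif.

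HIST1H1C, chr6:26056421-26056720, minus strand: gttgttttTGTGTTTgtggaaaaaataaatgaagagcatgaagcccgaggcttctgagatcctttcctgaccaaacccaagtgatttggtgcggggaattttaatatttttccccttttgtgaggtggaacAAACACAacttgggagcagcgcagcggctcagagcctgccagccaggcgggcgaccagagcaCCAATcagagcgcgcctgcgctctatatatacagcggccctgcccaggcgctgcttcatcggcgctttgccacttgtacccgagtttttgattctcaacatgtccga
H1FX, chr3:129316237-129316536, minus strand: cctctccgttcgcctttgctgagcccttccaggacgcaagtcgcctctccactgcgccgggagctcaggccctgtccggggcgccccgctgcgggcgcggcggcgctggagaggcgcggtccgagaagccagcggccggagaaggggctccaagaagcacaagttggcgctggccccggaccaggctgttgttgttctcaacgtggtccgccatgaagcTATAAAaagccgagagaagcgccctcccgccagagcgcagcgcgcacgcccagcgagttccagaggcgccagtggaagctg
HIST1H2BK, chr6:27146809-27147108, minus strand: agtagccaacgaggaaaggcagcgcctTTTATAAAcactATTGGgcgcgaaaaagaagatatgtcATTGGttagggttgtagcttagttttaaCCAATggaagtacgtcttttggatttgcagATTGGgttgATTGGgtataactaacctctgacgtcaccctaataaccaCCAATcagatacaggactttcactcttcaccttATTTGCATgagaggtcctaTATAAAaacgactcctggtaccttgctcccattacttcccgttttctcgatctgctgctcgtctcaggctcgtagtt
H2AFX, chr11:119095416-119095715, minus strand: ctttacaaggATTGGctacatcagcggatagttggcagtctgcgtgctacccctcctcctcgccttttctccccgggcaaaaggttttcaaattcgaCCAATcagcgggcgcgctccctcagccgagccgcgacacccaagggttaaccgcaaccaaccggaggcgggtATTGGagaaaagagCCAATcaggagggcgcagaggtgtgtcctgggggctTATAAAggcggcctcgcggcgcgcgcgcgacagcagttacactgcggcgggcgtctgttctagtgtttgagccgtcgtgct

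The HIST1H1C window held 2 H1 boxes and 1 CCAAT box. The H1FX window held a TATA box and none of the other motifs, although its gene moved the same way. HIST1H2BK held 6 CCAAT boxes, 1 octamer and 3 TATA matches, and H2AFX 4 CCAAT boxes and 1 TATA box. Of the 91 histone genes 74 had a promoter in the table, 60 of cluster and 14 of replacement genes. H1F0, H3F3AP4, HIST1H2BC, HIST1H2BG and HIST2H2BC had none.

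The octamer, the site of the factor encoded by POU2F1, was in 35.0% of cluster promoters and 7.14% of replacement promoters, against 1.80% of all 27305 promoters of this length. The H1 box was in 15% of cluster and 7.14% of replacement promoters, against 5.76% of all, and all 6 cluster H1 promoters held it. CCAAT was in 83.3% of cluster and 78.6% of replacement promoters, against 35.7% of all. TATAAA was in 66.7% of cluster and 28.6% of replacement promoters, against 12.0% of all. Of the 4 tested cluster genes whose window held the octamer, HIST1H2BK fell, and HIST1H2AC, HIST1H2AE and HIST2H2BE did not pass. HIST1H2BC and HIST1H2BG, with 218 and 282 bases between them and HIST1H2AC and HIST1H2AE, had no window in the table. Windows of such neighbours overlap, so 1 stretch can count for more than 1 gene in these shares. A match is a description of these letters and not a mapped site.

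Among the 5 tested replacement H2A genes none rose and 3 fell, against 43.6% higher and 41.0% lower among all tested genes. H2AFX encodes H2A.X, whose phosphorylated form marks DNA breaks, and it is the 1 replacement gene with a cluster-type stem-loop. It was at 22.6, 22.3 and 21.7 FPKM with YM155 and 53.3, 52.9 and 53.1 FPKM with DMSO. The replicates were close and the groups far apart, with a level 2.39-fold lower and a log2 fold change of -1.22 (SE 0.0418, adjusted p = 1.26e-08).

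The H2A.Z genes, H2AFZ and H2AFV, encode near-identical variants found at the starts of genes. H2AFV was at 42.8, 42.3 and 44.8 FPKM with YM155 and 57.8, 50.8 and 57.1 FPKM with DMSO. It fell, to a level 1.28-fold lower, with a log2 fold change of -0.34 (SE 0.0579, adjusted p = 0.000414). H2AFZ, the most abundant replacement gene after H3F3AP4, was at 324, 337 and 332 FPKM with YM155 and 366, 349.9 and 366 FPKM with DMSO. Its difference was small, 1.09-fold lower (log2 fold change -0.12, adjusted p = 0.0161), and the call was lost without DMSO replicate 1 (adjusted p = 0.0581) and with median-of-ratios scaling (adjusted p = 0.0733).

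H2AFY, the gene of macroH2A1, averaged 144 ± 2.04 FPKM with YM155 and 141 ± 3.73 FPKM with DMSO (SD, n = 3 each), and the values of the groups overlapped (adjusted p = 0.452). Its log2 fold change of 0.0326 became -0.22, -0.29 and -0.42 with upper-quartile scaling, a common sum and quantile normalization, each past the test as lower (adjusted p = 0.000574, 0.000129 and 3.94e-06). H2AFJ, a variant gene close to the cluster H2A genes in sequence, averaged 8.53 ± 1.01 FPKM with YM155 and 9.83 ± 0.655 FPKM with DMSO (SD, n = 3 each; adjusted p = 0.0674). Without YM155 replicate 1 it passed as lower (log2 fold change -0.27, adjusted p = 0.0101), as it did with upper-quartile, common-sum and quantile scaling (-0.41, -0.48 and -0.30; adjusted p = 0.0014, 0.000336 and 0.00808). H2AFY2, the macroH2A2 gene, stayed at or below 0.130 FPKM, and H2AFB1, H2AFB2 and H2AFB3, genes of a testis variant, were listed at 0 in every library. H2AFB2 and H2AFB3 are identical over the 348 bases of the shorter transcript, so their zeros show no lack of RNA.

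Histone H3.3 is encoded by H3F3A and H3F3B, and H3F3AP4 is a processed pseudogene of H3F3A. The annotated RNA of H3F3AP4 has 411 bases and all of them occur in H3F3A, so reads cannot be told apart over that stretch. H3F3A was at 18.9, 0.00622 and 0.00436 FPKM with YM155 and at 15.02, 11.3 and 0 FPKM with DMSO. Values near 0 and values above 10 occurred in both groups, and the log2 fold change of -1.10 had an SE of 1.31 (adjusted p = 0.448). Without YM155 replicate 1 the value was -2.53 (adjusted p = 0.0413). H3F3AP4 was at 392, 434 and 428 FPKM with YM155 and 666, 655 and 696 FPKM with DMSO, a fall of 1.61-fold with a log2 fold change of -0.69 (SE 0.0505, adjusted p = 1.46e-06). Because the pair shares sequence, the sum of both was also taken, and it was 424 ± 11.7 FPKM with YM155 and 681 ± 14.4 FPKM with DMSO (SD, n = 3 each), a ratio of 0.623.

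H3F3B, the other H3.3 gene, shares only 78.6% of aligned bases with H3F3A. It was at 180, 178 and 170 FPKM with YM155 and 192, 182 and 189.7 FPKM with DMSO. The groups did not overlap, yet the difference was small (log2 fold change -0.0954, adjusted p = 0.0626), and it passed without YM155 replicate 1 (adjusted p = 0.0488) and without DMSO replicate 2 (adjusted p = 0.0411). With upper-quartile, common-sum and quantile scaling it also passed as lower, at -0.35, -0.42 and -0.59 (adjusted p = 4.37e-05, 2.63e-05 and 1.42e-06). H3F3C, an intronless H3.3-like gene, was at 0.535, 0.392 and 0.600 FPKM with YM155 and 0.429, 0.128 and 0.143 FPKM with DMSO, below the level for a test.

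Cluster H2B genes were the best represented core histone class, with 6 of 20 tested, of which 1 rose, 4 fell and 1 did not pass. The 83.3% called lay near the 84.7% of all tested genes, so the count does not set this class apart. HIST1H2BK, the gene of H2B type 1-K, was at 5.95, 7.71 and 11.3 FPKM with YM155 and 24.1, 23.6 and 25.4 FPKM with DMSO. It varied more among YM155 libraries than among DMSO libraries, but the groups were well apart. The level was 2.93-fold lower, with a log2 fold change of -1.48 (SE 0.17, adjusted p = 2.97e-05), the largest fall on the log2(FPKM + 1) scale among the tested histone genes. By the ratio of means HIST1H3E fell more. HIST1H2BG fell too, at 1.08, 0.689 and 1.32 FPKM with YM155 and 2.71, 2.40 and 1.51 FPKM with DMSO (log2 fold change -0.66, adjusted p = 0.0044), and the call was lost with quantile normalization (adjusted p = 0.0808).

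HIST2H2BC, annotated as a transcribed pseudogene, was at 6.02, 4.55 and 7.08 FPKM with YM155 and 10.6, 10.1 and 7.52 FPKM with DMSO. The groups nearly met, and the fall was 1.60-fold (log2 fold change -0.60, adjusted p = 0.00507). HIST1H2BD was at 5.07, 6.23 and 4.87 FPKM with YM155 and 6.31, 7.35 and 6.42 FPKM with DMSO (log2 fold change -0.27, adjusted p = 0.0236). That call was lost without YM155 replicate 1, YM155 replicate 3 or DMSO replicate 2 (adjusted p = 0.0599, 0.0827 and 0.0876) and with no filter (adjusted p = 0.0579).

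HIST1H2BC went the other way. It was at 2.49, 2.36 and 3.26 FPKM with YM155 and 1.71, 1.24 and 1.38 FPKM with DMSO, a rise of 1.87-fold with a log2 fold change of 0.60 (SE 0.11, adjusted p = 0.000841). HIST2H2BE, the gene with the longest annotated stretch past its stem-loop among those printed, was at 6.04 ± 0.269 FPKM with YM155 and 6.05 ± 0.399 FPKM with DMSO (SD, n = 3 each; adjusted p = 0.98). Its overlapping values gave a log2 fold change of -0.00199, which was 0.0309 with median-of-ratios scaling. It passed as lower with upper-quartile scaling (-0.22, adjusted p = 0.0152) and with a common sum (-0.28, adjusted p = 0.00689).

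**Figure D2:**
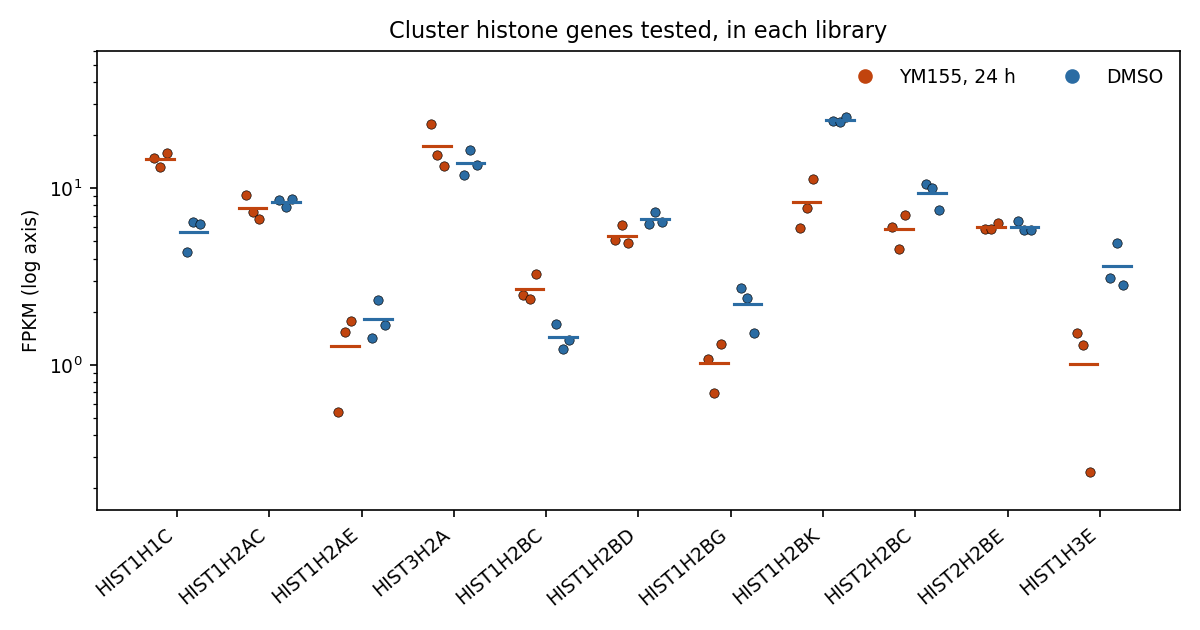
FPKM (log axis) of the 11 tested cluster histone genes in each library, YM155 libraries left of DMSO libraries for each gene and a line at each group's mean. HIST1H1C and HIST1H2BC lie higher with YM155, and HIST1H2BK, HIST1H3E, HIST1H2BG, HIST2H2BC and HIST1H2BD lower.

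Of 18 cluster H2A genes 3 were tested and none passed, against 84.7% of all tested genes that did. HIST3H2A, outside the large chromosome 6 cluster, was the most abundant of them, at 23.1, 15.4 and 13.3 FPKM with YM155 and 11.8, 16.4 and 13.5 FPKM with DMSO. The groups overlapped (log2 fold change 0.27, SE 0.18, adjusted p = 0.196), with YM155 replicate 1 the highest of all. The gene passed as higher without YM155 replicate 3 (log2 fold change 0.43, adjusted p = 0.0493), and the value was -0.0351 with a common sum. HIST1H2AC averaged 7.71 ± 1.25 FPKM with YM155 and 8.38 ± 0.457 FPKM with DMSO (SD, n = 3 each; adjusted p = 0.299). It passed as lower without YM155 replicate 1 (log2 fold change -0.23, adjusted p = 0.0157) and with upper-quartile and common-sum scaling (-0.34 and -0.40; adjusted p = 0.00993 and 0.00415). HIST1H2AE averaged 1.28 ± 0.654 FPKM with YM155 and 1.81 ± 0.463 FPKM with DMSO (SD, n = 3 each; adjusted p = 0.173), and it passed as lower with a common sum (-0.52, adjusted p = 0.0391).

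H2A and H2B genes of the clusters often stand head to head, sharing the stretch between their starts. In GENCODE release 29, 13 pairs of cluster genes lay head to head on opposite strands within 500 bases of each other, 12 of them an H2A with an H2B gene and 1 the H3 gene HIST1H3J with HIST1H2BO. Both genes were tested in 2 of the pairs. HIST1H2BC rose while its neighbour HIST1H2AC did not pass, and HIST1H2BG fell while HIST1H2AE did not pass; whether the members of a pair differed from each other was not tested. In 4 further pairs 1 gene was tested and its neighbour was not: HIST1H2BK averaged 8.31 FPKM with YM155 and 24.4 FPKM with DMSO, while HIST1H2AH was at 0 FPKM with YM155 and 0.0926 FPKM with DMSO. The other pairs of that kind were HIST3H2A with HIST3H2BB, HIST2H2BE with HIST2H2AC, and HIST2H2BC with HIST2H2AA4. HIST3H2BB averaged 0.568 FPKM with YM155 and 0.602 FPKM with DMSO, and HIST2H2AC 0.877 FPKM with YM155 and 0.912 FPKM with DMSO, while the 0 of HIST2H2AA4 cannot be read as a level because an identical copy exists.

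Cluster H3 had 1 tested gene of 14, HIST1H3E. It was at 1.51, 1.29 and 0.246 FPKM with YM155 and 3.10, 4.92 and 2.83 FPKM with DMSO, and every YM155 library lay below every DMSO library. Its mean was 3.56-fold lower and the log2 fold change was -1.23 (SE 0.26, adjusted p = 0.00174), the larger ratio being damped by the added constant at this low level. None of the 15 cluster H4 genes reached the level for a test, and H4 has no replacement genes among these symbols.

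The 62 untested cluster genes never exceeded 1.44 FPKM, a value reached by HIST1H2BH in YM155 replicate 3, and 15 of them were at 0 in every library. The 47 above 0 were, besides the H1 genes already named, 11 of H2A (HIST1H2AB, HIST1H2AD, HIST1H2AG, HIST1H2AH, HIST1H2AI, HIST1H2AJ, HIST1H2AK, HIST1H2AL, HIST1H2AM, HIST2H2AB and HIST2H2AC) and 10 of H2B (HIST1H2BE, HIST1H2BF, HIST1H2BH, HIST1H2BJ, HIST1H2BL, HIST1H2BM, HIST1H2BN, HIST1H2BO, HIST2H2BF and HIST3H2BB). A further 11 were of H3 (HIST1H3A, HIST1H3B, HIST1H3C, HIST1H3D, HIST1H3F, HIST1H3G, HIST1H3H, HIST1H3I, HIST1H3J, HIST2H3D and HIST3H3) and 11 of H4 (HIST1H4A, HIST1H4B, HIST1H4C, HIST1H4D, HIST1H4E, HIST1H4H, HIST1H4I, HIST1H4J, HIST1H4K, HIST1H4L and HIST4H4). In 38 of the 47, all values scaled by what 1 read was worth were whole multiples of the gene's smallest, its step (within 0.1). Single reads would give this, but a gene above 0 in 1 library only, such as HIST1H2AB, meets it by construction. A step may also be more than 1 read. On that scale the median gene had 1 step over the YM155 libraries and 3 over the DMSO libraries, and no gene more than 18 over all 6. Together these 38 genes had 69 steps with YM155 and 151 with DMSO, from libraries of unequal depth. The summed level of all 62 was 9.65 ± 1.33 FPKM with YM155 and 12.6 ± 1.15 FPKM with DMSO (SD, n = 3 each).

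Among the genes at 0 in every library were HIST2H2AA3 and HIST2H2AA4, HIST2H3A and HIST2H3C, and HIST2H4A and HIST2H4B. Each of these pairs is identical over the whole shorter transcript in GENCODE release 29, with 549, 1656 and 1547 bases, so that a read from either would match both. How such reads were counted is not given in the sources used here, so these zeros show no lack of RNA. Of the 13 HIST2H genes 7 were at 0 throughout, against 8 of the 56 HIST1H genes.

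Cluster genes were also split by their annotated transcripts. Of 27 cluster genes with a transcript of at least 1000 bases or more than 1 exon, 7 were tested, as were 4 of the other 46. Summed mean levels were 34.7 FPKM with YM155 and 44.3 FPKM with DMSO in the long or spliced genes, and 46.2 FPKM with YM155 and 51.9 FPKM with DMSO in the others. The 30 genes annotated with a stem-loop summed to 46.4 FPKM with YM155 and 47.1 FPKM with DMSO, and the 43 without to 34.5 FPKM with YM155 and 49.1 FPKM with DMSO. HIST1H2BK alone contributed 8.31 FPKM with YM155 and 24.4 FPKM with DMSO to the genes without an annotated stem-loop. These figures describe the sums and carry no test.

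All cluster genes together reached 83.7, 76.2 and 82.8 FPKM with YM155 and 94.6, 101.7 and 92.2 FPKM with DMSO, a ratio of 0.841. All replacement genes reached 1628, 1628 and 1587 FPKM with YM155 and 1671, 1623 and 1704 FPKM with DMSO, a ratio of 0.969. Cluster genes thus gave 4.77% ± 0.265 of all histone FPKM with YM155 and 5.46% ± 0.392 with DMSO (SD, n = 3 each). Both ratios hung on the most abundant gene of each kind: the cluster ratio was 1.01 without HIST1H2BK and the replacement ratio 1.204 without H3F3AP4. Histone genes as a whole held 0.248% of the summed FPKM of all genes with YM155 and 0.322% with DMSO.

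The sums by class, given as descriptions without a test, differed more than the totals. Those of the linker histones were higher with YM155, with ratios of 2.54 for the cluster H1 genes (15.2 FPKM with YM155, 5.98 FPKM with DMSO) and 2.63 for the replacement H1 genes (465 FPKM with YM155, 177 FPKM with DMSO). The sums of H3 were lower with YM155, with ratios of 0.369 for the cluster genes (2.19 FPKM with YM155, 5.93 FPKM with DMSO) and 0.691 for the replacement genes (601 FPKM with YM155, 869 FPKM with DMSO). Single genes carried much of both H3 sums. HIST1H3E held 1.01 FPKM with YM155 and 3.61 FPKM with DMSO of the cluster sum. The pseudogene H3F3AP4 held 418 FPKM with YM155 and 672 FPKM with DMSO of the replacement sum. Cluster H2B had a ratio of 0.612 (32.7 FPKM with YM155, 53.5 FPKM with DMSO), cluster H2A 1.02 (28.0 FPKM with YM155, 27.5 FPKM with DMSO) and replacement H2A 0.886 (549 FPKM with YM155, 620 FPKM with DMSO). Of the cluster H2B sum, HIST1H2BK alone held 8.31 FPKM with YM155 and 24.4 FPKM with DMSO. Cluster H4, with no tested gene, summed to 2.88 FPKM with YM155 and 3.32 FPKM with DMSO.

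**Figure D3:**
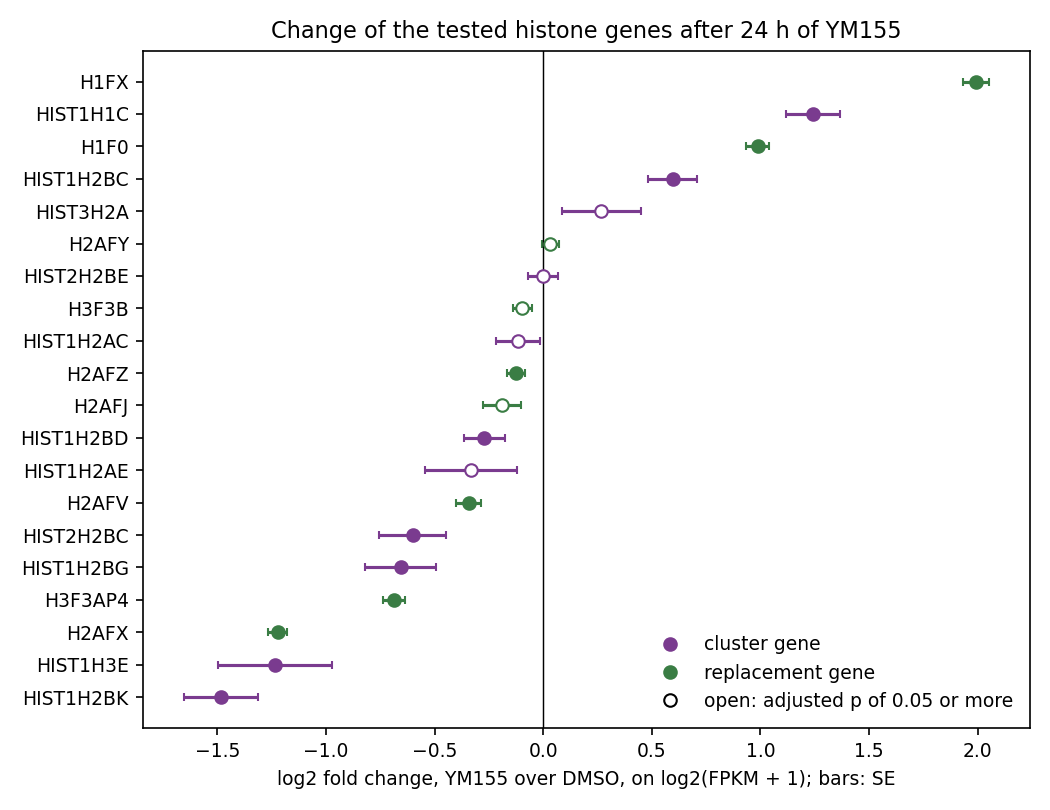
Log2 fold change (YM155 over DMSO, log2(FPKM + 1) scale) of the tested histone genes, ordered by it and coloured by cluster or replacement, with bars of 1 SE, filled where the gene passed the test and open where it did not. The linker histone genes H1FX, HIST1H1C and H1F0 lie at 0.99 or above and HIST1H2BK, HIST1H3E and H2AFX below -1, and H3F3A is left out because its SE is 1.31.

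Genes that make, process and place histones were taken as further lists, whose counts stand against 43.6% higher and 41.0% lower among all tested genes. All 20 S phase genes fell, with a median log2 fold change of -1.21. Among them were MCM6 of the replicative helicase (6.81 ± 0.308 FPKM with YM155, 31.0 ± 0.462 FPKM with DMSO, 4.55-fold lower), the sliding clamp gene PCNA (34.4 FPKM with YM155, 92.0 FPKM with DMSO) and UHRF1, which couples DNA methylation to replication (2.33 FPKM with YM155, 13.2 FPKM with DMSO). Of the 11 tested cluster histone genes 5 fell, HIST1H2BK among them, 2 rose, HIST1H1C among them, and 4 did not pass. Of the 10 tested replacement genes 4 fell, H2AFX among them, 2 rose and 4 did not pass.

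Of 23 genes of cluster transcription and of 3′ end processing and decay of histone mRNA, 10 rose, 9 fell and 4 did not pass (median log2 fold change 0.12). The 82.6% called lay near the 84.7% of all tested genes, so the count does not set the list apart. The largest rise was that of ERI1, the exonuclease that trims and degrades stem-loop mRNAs, at 9.36 ± 0.573 FPKM with YM155 and 2.71 ± 0.338 FPKM with DMSO (SD, n = 3 each), 3.45-fold higher (adjusted p = 2.61e-07). LSM11, a protein of the U7 particle, was 3.02-fold higher (6.67 FPKM with YM155, 2.21 FPKM with DMSO). LSM10, of the same particle and chosen after its values were seen, did not pass (19.5 FPKM with YM155, 19.1 FPKM with DMSO). ZNF473, which joins that particle to SLBP, was 2.72-fold higher (17.2 FPKM with YM155, 6.34 FPKM with DMSO), and UPF1, the helicase of histone mRNA decay, 1.67-fold higher (26.1 FPKM with YM155, 15.7 FPKM with DMSO).

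Downward in the same list went CCNE2, a cyclin of the kinase that activates cluster transcription, at 1.11 FPKM with YM155 and 5.14 FPKM with DMSO (4.63-fold lower). The other E cyclin gene, CCNE1, chosen after its values were seen, was 1.77-fold higher (12.7 FPKM with YM155, 7.15 FPKM with DMSO). CPSF3, the nuclease that cuts both stem-loop and polyadenylated mRNA precursors, was 2.04-fold lower (19.3 FPKM with YM155, 39.6 FPKM with DMSO). MIF4GD, which links SLBP to translation, was 2.31-fold lower (5.21 FPKM with YM155, 12.0 FPKM with DMSO), and the cap-binding gene NCBP1 1.57-fold lower (11.7 FPKM with YM155, 18.4 FPKM with DMSO). SLBP did not pass, at 34.9 ± 2.50 FPKM with YM155 and 32.0 ± 0.579 FPKM with DMSO (SD, n = 3 each; adjusted p = 0.0786), and its log2 fold change of 0.12 depended on the scaling. It passed as higher with median-of-ratios scaling (0.16, adjusted p = 0.031) and without YM155 replicate 3 (0.16, adjusted p = 0.0313). It passed as lower with a common sum (-0.20, adjusted p = 0.017) and quantile normalization (-0.25, adjusted p = 0.00283), and was at -0.13 with upper-quartile scaling (adjusted p = 0.0597). Chosen after its values were seen, POU2F1, the octamer-binding factor, rose 2.3-fold (6.63 ± 0.600 FPKM with YM155, 2.88 ± 0.154 FPKM with DMSO; adjusted p = 2.71e-06).

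Chaperones that hand new histones to replicating DNA mostly fell: 11 of 16 were lower, 4 higher and 1 did not pass (median log2 fold change -0.48). ASF1B, the chaperone of new H3 and H4, was 3.25-fold lower (6.11 ± 0.531 FPKM with YM155, 19.8 ± 1.53 FPKM with DMSO; adjusted p = 1.16e-07). RBBP4 was 2.67-fold lower (10.6 FPKM with YM155, 28.3 FPKM with DMSO) and its relative RBBP7 2.48-fold lower (46.1 FPKM with YM155, 114 FPKM with DMSO), both histone-binding subunits. The FACT complex, which opens and rebuilds nucleosomes, was split. Its subunit SUPT16H was 2.08-fold lower (18.2 FPKM with YM155, 37.8 FPKM with DMSO), while its partner SSRP1 was 1.35-fold higher (166 FPKM with YM155, 123 FPKM with DMSO), a rise that turned to a log2 fold change of -0.0143 with quantile normalization.

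The other chaperone genes that passed as higher were IPO4, an importer of H3 and H4 (21.1 FPKM with YM155, 13.5 FPKM with DMSO), TONSL (10.5 FPKM with YM155, 8.12 FPKM with DMSO) and the H2A and H2B chaperone gene NAP1L1 (235 FPKM with YM155, 202 FPKM with DMSO). TONSL no longer passed with upper-quartile or common-sum scaling (adjusted p = 0.131 and 0.573), and NAP1L1 was at -0.0265, -0.0982 and -0.28 (log2) with upper-quartile, common-sum and quantile scaling, the last past the test as lower (adjusted p = 0.000248). CDAN1 did not pass (2.32 FPKM with YM155, 2.29 FPKM with DMSO; adjusted p = 0.858); it passed as higher with quantile normalization (0.31, adjusted p = 0.00765) and as lower with a common sum (-0.21, adjusted p = 0.0347).

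Deposition outside replication showed 8 genes higher, 7 lower and 2 that did not pass (median log2 fold change 0.0501). The ATPase genes of the complexes that place H2A.Z rose, SRCAP 2.39-fold (32.3 ± 1.61 FPKM with YM155, 13.5 ± 0.501 FPKM with DMSO; adjusted p = 7.32e-08) and EP400 2.61-fold (12.9 FPKM with YM155, 4.96 FPKM with DMSO). INO80, a remodeller gene, was 2.00-fold higher (19.4 FPKM with YM155, 9.72 FPKM with DMSO) and UBN1, of the HIRA complex that deposits H3.3, 1.83-fold higher (21.7 FPKM with YM155, 11.8 FPKM with DMSO). ANP32E, the chaperone that removes H2A.Z, was 2.37-fold lower (5.98 FPKM with YM155, 14.2 FPKM with DMSO). Other subunit genes of the complexes that place H2A.Z, chosen after their values were seen, went both ways. ZNHIT1 (34.1 FPKM with YM155, 55.7 FPKM with DMSO) and ACTR6 (6.34 FPKM with YM155, 10.5 FPKM with DMSO) were lower. VPS72 was higher (64.0 FPKM with YM155, 41.4 FPKM with DMSO).

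The centromere genes of that list fell. CENPA, the centromeric H3 variant that the symbol rule does not take, was 3.31-fold lower (1.98 ± 0.232 FPKM with YM155, 6.57 ± 0.519 FPKM with DMSO; adjusted p = 5.65e-07). Its chaperone gene HJURP was 4.25-fold lower (3.19 FPKM with YM155, 13.5 FPKM with DMSO) and OIP5, which is needed for loading it, 3.02-fold lower (3.46 FPKM with YM155, 10.4 FPKM with DMSO). HIRA itself did not pass, at 23.2 ± 0.810 FPKM with YM155 and 22.4 ± 0.935 FPKM with DMSO (SD, n = 3 each; adjusted p = 0.385), and its log2 fold change of 0.0501 was -0.19, -0.26 and -0.26 with upper-quartile, common-sum and quantile scaling, each past the test as lower (adjusted p = 0.00746, 0.00126 and 0.00163).

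**Figure D4:**
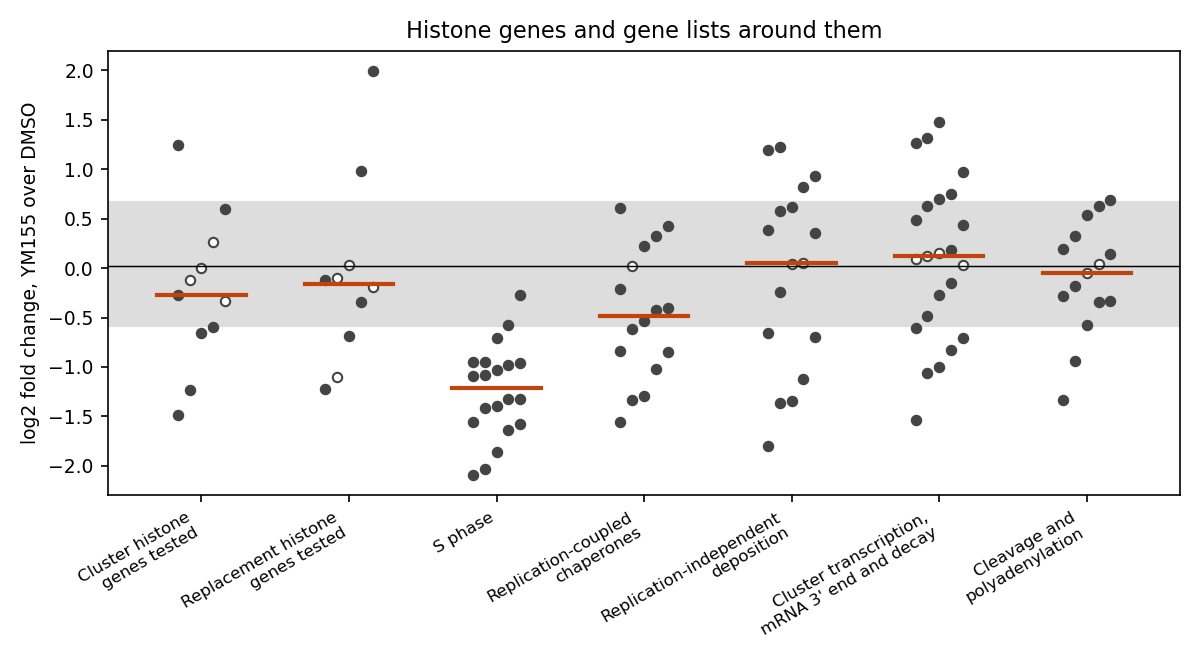
Log2 fold change (YM155 over DMSO) of every tested gene in the histone sets and the 5 lists, filled where the gene passed the test and open where it did not, with an orange bar at the median. The grey band and line give the quartiles and median of all tested genes, and the S phase genes all lie below 0 with a median of -1.21.

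General cleavage and polyadenylation, which forms the tails that the libraries select, moved in both directions, with 6 of 15 genes higher, 7 lower and 2 not past the test (median log2 fold change -0.0476). CSTF3 was 2.61-fold lower (16.6 ± 2.34 FPKM with YM155, 43.4 ± 4.73 FPKM with DMSO; adjusted p = 2.84e-06) and its fellow cleavage stimulation gene CSTF2T 2.12-fold lower (4.45 FPKM with YM155, 9.42 FPKM with DMSO). CPSF6 was 1.52-fold lower (12.97 FPKM with YM155, 19.7 FPKM with DMSO), and PCF11, which acts at transcription termination, 1.29-fold lower (10.7 FPKM with YM155, 13.9 FPKM with DMSO). Higher were CPSF1, 1.65-fold (38.4 FPKM with YM155, 23.3 FPKM with DMSO), FIP1L1, 1.58-fold (30.9 FPKM with YM155, 19.6 FPKM with DMSO), and CPSF7, 1.46-fold (49.0 FPKM with YM155, 33.5 FPKM with DMSO). WDR33, of the complex that reads the poly(A) signal, was 1.15-fold higher (18.1 FPKM with YM155, 15.8 FPKM with DMSO), at -0.0471, -0.12 and -0.0667 on the log2 scale with upper-quartile, common-sum and quantile scaling. CSTF1 did not pass (28.6 FPKM with YM155, 27.7 FPKM with DMSO; adjusted p = 0.465), but passed as lower with the same scalings (-0.20, -0.27 and -0.29; adjusted p = 0.00907, 0.00388 and 0.00096). The part of these changes in the histone levels was not tested.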

How the data were processed

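Messenger RNA of HT29 cells was sequenced in 3 YM155 and 3 DMSO libraries, grouped by their labels. The authors deposited FPKM per gene and library. The submitters' processing notes name Cufflinks 2.2.1, Cuffdiff, TopHat2 2.1.1, SAMtools 1.2 and Bowtie2 2.3.5.1 and build hg19. What the sources used here leave unstated is the annotation, strand use, the treatment of multiply matching reads and read totals, so depth is known only relatively, and overlapping genes and near-identical copies are uncertain.

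Genes at 1 FPKM or more in at least 3 of 6 libraries (12035) were compared as log2(FPKM + 1) with limma 3.58.1 in R 4.3.3 (lmFit, eBayes with trend, two-sided), adjusted by Benjamini-Hochberg over all of them, threshold 0.05. Fold changes on this scale understate low genes. Folds are ratios of mean FPKM. The method was also run on simulated data with far fewer changed genes than were called here, so that run gives no error rate for these data. Histone members and gene lists were chosen with earlier results of these data known. Every tested member was named, and of each list up to 4 genes with the lowest p in each direction and the most abundant gene that did not pass. One gene that this rule took is not reported here. Transcripts and gene neighbours came from GENCODE release 29 (GRCh38) and promoters from RefSeq (GRCh38.p14), which differ from the authors' build and were used for sequence and names only. Alternatives were other pseudocounts, filters, scalings, eBayes settings, a replicate block, a stricter threshold and leaving out each library.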

Additional observations from a re-analysis of the deposited data

How the results depend on the processing

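The rises of H1FX, H1F0, HIST1H1C and HIST1H2BC and the falls of H2AFX, H2AFV, H3F3AP4, HIST1H2BK, HIST1H3E and HIST2H2BC kept their direction and call under every alternative in which they were tested. Over the 21 tested histone genes, 374 alternative values were computed: 337 kept direction and call, 10 lost the call, 18 gained one and 9 changed sign. Upper-quartile scaling, a common sum, quantile normalization and a mean filter moved the median of all genes by -0.23, -0.29, -0.11 and 0.16 (log2), so small changes are relative to the scaling. A mean FPKM of at least 5 left 2922 genes lower over all, and 1 cluster gene higher and 3 lower of 7 tested. Replacement genes called lower numbered 7 with upper-quartile, common-sum and quantile scaling, against 4, and with a common sum 8 cluster genes were lower, against 5. Of all genes 51.3%, 53.8% and 46.0% were then called lower, against 41.0%. Higher chaperone genes numbered 2, and higher cleavage and polyadenylation genes 3, with upper-quartile scaling and with a common sum.

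The summed cluster ratio of 0.841 was 1.01 without HIST1H2BK, 0.707 with upper-quartile scaling and 0.673 with a common sum. The summed replacement ratio of 0.969 was 1.204 without H3F3AP4, 0.814 with upper-quartile scaling, 0.995 with median-of-ratios scaling and 0.774 with a common sum. Leaving out each library gave cluster ratios from 0.824 to 0.866 and replacement ratios from 0.957 to 0.98, and 3 to 7 replacement genes called lower, with 7 without YM155 replicate 1. Signs changed, on the log2 scale, with upper-quartile scaling, a common sum and quantile normalization in that order, for H2AFY (-0.22, -0.29, -0.42), SLBP (-0.13, -0.20, -0.25), NAP1L1 (-0.0265, -0.0982, -0.28), HIRA (-0.19, -0.26, -0.26), WDR33 (-0.0471, -0.12, -0.0667) and CSTF1 (-0.20, -0.27, -0.29). CDAN1 was at -0.16 and -0.21 with upper-quartile scaling and a common sum, the second past the test as lower (adjusted p = 0.0347), at 0.31 with quantile normalization, past it as higher (adjusted p = 0.00765), and from -0.0457 to 0.0754 when each library was left out (-0.000471 without YM155 replicate 3). HIST2H2BE was at 0.0309 with median-of-ratios scaling, 0.0448 with quantile normalization, and from -0.0333 to 0.0444 when each library was left out. HIST3H2A was at -0.0351 with a common sum and SSRP1 at -0.0143 with quantile normalization. The causes were not tested.

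Deviations of same-numbered libraries correlated at -0.0710, -0.15 and -0.12. These values show no pairing by replicate number, but so few libraries cannot settle it. With the number as a replicate block 5147 genes were higher and 4861 lower, 2 cluster genes were higher and 6 lower, and 2 replacement genes were higher and 3 lower. H2AFZ lost its call (adjusted p = 0.0586) and HIST1H2AE gained one (adjusted p = 0.0446). Of the 73 cluster genes 62 had too little signal to test, at depths that were lower with YM155.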
